A study of Homo sapiens with 7 samples.

Results

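The genes described here encode the mitochondrial ribosomal proteins, the protein subunits of the ribosome that works inside mitochondria. They are the listed genes whose symbols begin with MRPL or MRPS followed by a number, and at most 1 closing letter, 78 of the 19775 genes listed (49 MRPL and 29 MRPS). Their transcripts were counted by poly(A) RNA sequencing of wild-type H1 cells, a widely used human embryonic stem cell line, kept in the defined E8 medium. The groups were untreated E8 cells harvested at 48 h (n = 2) and E8 cells given 1 µM XMD892, with 1 sample at 12 h, 2 samples at 24 h and 2 at 48 h. XMD892 is a kinase inhibitor that the title of the series links to ERK5, and the comparisons ask how transcripts differ after each length of exposure. All cells were of 1 line, and E8 cells were harvested at 48 h only, so at 12 and 24 h the inhibitor and the harvest time cannot be told apart. The labels do not say whether the replicates came from separate cultures, so p-values measure the spread between these samples, which may be technical.

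The mitochondrial ribosome, or mitoribosome, makes the few proteins that the mitochondrial genome encodes, all of them core subunits of the respiratory chain and ATP synthase. Its ribosomal RNA comes from mitochondrial DNA, whereas all of its proteins are encoded in the nucleus, made in the cytosol and imported. Some of these proteins have a bacterial homologue and the others were added during the evolution of mitochondria. Pluripotent stem cells have few, immature mitochondria and draw much of their ATP from glycolysis.

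By the 2014 nomenclature, 51 of the 78 genes encode proteins of the large subunit and 26 proteins of the small subunit. Symbols and positions do not always match, since MRPS30 and MRPS18A, named for the small subunit, sit in the large subunit. MRPS36 encodes a protein of the 2-oxoglutarate dehydrogenase complex rather than a ribosomal subunit. A bacterial homologue is known for 46 members, and 31 are specific to mitochondria. The genes lie on 21 chromosomes in GENCODE 29 (GRCh38), with at most 8 on any of them, chromosome 17 among those with 8.

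Promoter sequences of the members that stood out are shown first. Housekeeping promoters, such as those of many mitoribosomal protein genes, can carry sites for ETS factors such as GABPA, for NRF1 or for YY1. RefSeq (GRCh38.p14) held promoters for 69 of the 78 members, 85 windows of 300 bases, each running from 250 bases before a start to 50 after it. The 120 bases before the RefSeq start follow, 5′ to 3′ along the gene. They are given for 5 of the 6 members called higher both at 24 h and at 48 h and for MRPL36, the member called at 12 h. MRPS28, also called at both times, was left out. Capitals mark matches to CCGGAAG (the ETS core), AAGATGGCG (YY1), CGCANGCG (the middle of the NRF1 motif) or ACAACTCCC (part of the ZNF143 motif, added after these bases had been seen), read on both strands.

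MRPL24, chr1:156741089-156741208, minus strand, inside the GENCODE 29 span of the gene: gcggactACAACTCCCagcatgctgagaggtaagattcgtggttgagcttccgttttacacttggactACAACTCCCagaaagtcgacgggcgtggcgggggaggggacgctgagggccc
MRPL55, chr1:228109300-228109419, minus strand: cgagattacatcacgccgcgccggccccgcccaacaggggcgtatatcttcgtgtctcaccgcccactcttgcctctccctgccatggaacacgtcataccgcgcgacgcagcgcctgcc
MRPL52, chr14:22829767-22829886, plus strand: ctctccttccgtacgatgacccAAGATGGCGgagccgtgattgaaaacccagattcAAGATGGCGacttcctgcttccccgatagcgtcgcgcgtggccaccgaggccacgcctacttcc
MRPL27, chr17:50373185-50373304, minus strand: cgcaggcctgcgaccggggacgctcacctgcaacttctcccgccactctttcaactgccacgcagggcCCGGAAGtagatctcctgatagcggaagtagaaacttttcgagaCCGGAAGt
MRPL54, chr19:3762562-3762681, plus strand: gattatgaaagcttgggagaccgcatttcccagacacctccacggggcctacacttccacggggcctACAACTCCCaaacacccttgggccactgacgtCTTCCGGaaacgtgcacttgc
MRPL36, chr5:1799838-1799957, minus strand, inside the GENCODE 29 span of the gene: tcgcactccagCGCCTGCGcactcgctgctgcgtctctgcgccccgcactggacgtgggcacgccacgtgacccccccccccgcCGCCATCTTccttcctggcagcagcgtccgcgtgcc

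MRPL24 held 2 copies of ACAACTCCC in these bases and MRPL54 held 1, beside the ETS core read on the opposite strand. MRPL27 held 2 copies of the ETS core, MRPL52 held 2 copies of the YY1 letters, and MRPL36 held both NRF1 and YY1 letters. None of the 4 motifs was found in the printed bases of MRPL55, which says only that these letters are not in this window. Over whole windows, CCGGAAG was present in 38.8% of member promoters and in 15.7% of the promoters of all tested genes. AAGATGGCG was present in 15.3% of member promoters against 3.14% of all. ACAACTCCC was present in 3.53% against 1.16%, in those of MRPL24, MRPL50 and MRPL54. Because ACAACTCCC was added after the bases of MRPL24 and MRPL54 had been seen, its higher share among members carries no weight. Shares lay closer for CGCANGCG (18.8% against 15.7%), for the E-box CACGTG (10.6% against 9.15%) and for the GC box GGGCGG (51 of 85 windows against 65.6%). The cAMP response element TGACGTCA was present in 1.18% against 2.67%, a share that rests on 1 of 85 member windows. All letters were searched on both strands, and matches that overlapped at their ends, as CCGGAAG and AAGATGGCG can, were counted for each motif. The promoter sequences bear on the values below as a description only. The 30 tested members with CCGGAAG had a median log2 fold change of 0.29 at 24 h and 0.18 at 48 h, and the 38 without it had 0.16 and 0.09. By the test given below, 8.66% of all tested genes were called higher at 24 h and 5.08% at 48 h. Members called higher numbered 4 of 30 with CCGGAAG and 9 of 38 without it at 24 h. At 48 h they numbered 6 of 30 and 2 of 38, and the groups were not compared by a test. When E8 replicate 1, a library described below, was left out, these counts were 0 and 3 at 24 h and 1 and 0 at 48 h, with medians of 0.13 and 0.08 at 24 h and 0.06 and 0.00 at 48 h.

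Libraries carried between 18528689 and 24148186 reads in the listed genes, and the members took between 0.388% and 0.485% of them. Values are read counts scaled by the authors with a factor for each library, called normalised read counts here. The E8 libraries stood apart from each other: 56 of 78 members were lower in E8 replicate 1 than in E8 replicate 2, with a median difference of 0.24 on the log2 scale against 0.02 over all tested genes. Moreover 48 of 78 members were lower in E8 replicate 1 than in each of the other 6 libraries, against 26.1% of all tested genes. The median difference between replicates over members was -0.05 at 24 h and -0.01 at 48 h. Over members this difference had an SD of 0.42 in E8, wider than the 0.16 found at 24 h or the 0.20 found after 48 h. The E8 difference followed transcript GC content, with a Spearman correlation of 0.64 over 77 members and 0.64 over all tested genes, a description of 1 pair of libraries. Main counts of called genes and the correlations below are therefore given with and without E8 replicate 1. Some other counts are given with that library only, such as those with the length trend removed. The same holds for members above or below E8 throughout and for the calls of markers other than stem cell markers. The part of GC content in all these values was not tested.

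Undifferentiated stem cell markers (POU5F1, SOX2, NANOG, LIN28A, DPPA4, SALL4, DNMT3B and TDGF1) were all listed, and their summed level lay between 156900 and 192800 in every library, with POU5F1 between 42270 and 67880. Of these 8 markers, NANOG, TDGF1 and SALL4 were called lower at 24 h, NANOG and TDGF1 at 48 h and NANOG at 12 h, none was called higher, and the medians were -0.28, -0.23 and -0.35. NANOG, a core pluripotency factor, had 6631 and 5818 in E8, 3904 and 4138 at 24 h, then 2552 and 3046 at 48 h (-1.16 at 48 h, adjusted p = 1.6e-05, limma), and without E8 replicate 1 the list had SOX2, NANOG and TDGF1 called lower at 24 h, 2 lower at 48 h and 3 at 12 h. Mesendoderm markers summed to 339 and 327 in E8 and to between 74.1 and 121 with XMD892. Neuroectoderm markers summed to between 9881 and 21260, trophoblast and amnion markers to between 79.1 and 202 and fibroblast markers to between 5511 and 6929. At 48 h, 2 of 3 tested mesendoderm markers (MIXL1 and GSC) and 2 of 3 fibroblast markers (PDGFRB and COL1A1) were called lower, and none higher. COL1A1 was instead called higher at 12 h and at 24 h, while 1 fibroblast marker was called lower at 24 h. Of 5 tested neuroectoderm markers, 1 was called higher and 2 lower at 48 h, namely SOX1, SIX3 and HESX1. The median log2 fold change of these 5 was -0.10 at 48 h, and -0.24 without E8 replicate 1. The 1 tested trophoblast and amnion marker was called lower at 12 h and 24 h only. Of all tested genes, 5.08% were called higher and 6.45% lower at 48 h. These shares were 8.66% and 7.56% at 24 h and 2.56% and 4.89% at 12 h. Some markers, such as PAX6, SOX17 and FOXA2, were not among the genes listed, and LHX2, GATA4 and TFAP2A were at 0 in at least 1 library. Of 5 endoderm markers, 1 was listed and none could be tested. In bulk RNA, fewer cells of a type and less RNA per cell cannot be told apart, and the part of these cell states in the results was not tested. MAPK7, which encodes ERK5, the kinase that the title names, had counts of 711 and 727 in E8, 673 at 12 h, 748 and 857 at 24 h, then 672 and 764 at 48 h.

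**Figure D1:**
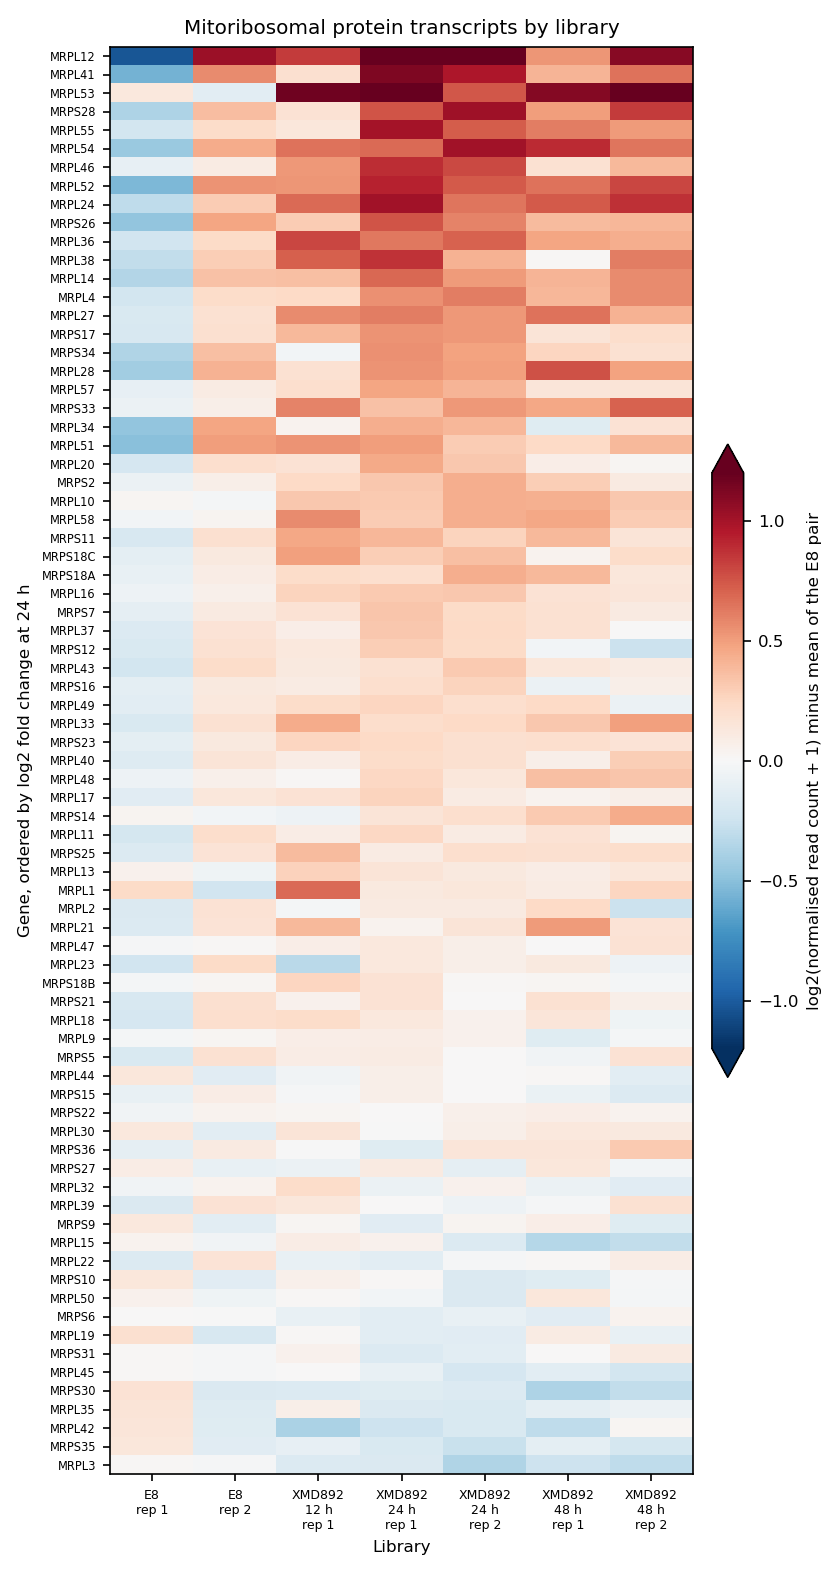
Heat map of the 77 tested mitoribosomal protein genes (rows, ordered by log2 fold change at 24 h) in the 7 libraries (columns). Colour is log2(normalised read count + 1) minus the mean of the E8 pair, so the E8 columns mirror each other; rows for MRPL12, MRPL41 and MRPS28 show the wide E8 pair, and the top rows are red in the 24 h and 48 h columns.

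Levels of the members differed widely in E8 cells. Per 1000 bases of transcript, MRPS34 was highest with 2322 and 3843 reads (3082 ± 1076, SD, n = 2), and the E8 replicates of this small subunit protein lay far apart. MRPL3, a large subunit protein with a bacterial homologue, followed with 2298 and 2258 reads per 1000 bases (2278 ± 28.2, SD, n = 2). MRPL20, MRPL37 and MRPL23 came next with means of 1966 ± 381, 1945 ± 305 and 1767 ± 389 reads per 1000 bases (SD, n = 2). The lower MRPS34 library stood just above the MRPL3 pair, and the means of MRPS34 and MRPL3 differed by less than the SD of MRPS34. Both libraries of MRPL20, MRPL37 and MRPL23 lay below both of MRPL3, while those 3 genes did not differ from each other beyond their spread. The median over the 77 tested members was 690 reads per 1000 bases.

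The lowest tested members in E8 were MRPL53 with 16.5 ± 2.19, MRPL38 with 31.3 ± 8.96, MRPS17 with 64.0 ± 12.2, MRPS11 with 129 ± 24.5 and MRPL42 with 172 ± 24.7 reads per 1000 bases (SD, n = 2). MRPL42 owes its place to an annotated transcript of 15582 bases, since its normalised read count, 2682 ± 385 in E8, was among the larger ones. The order of levels depends on such lengths, which were taken from GENCODE 29. MRPS24 was the only member with a mean under the minimum of 10 (9.60 and 1.65 in E8, 8.59 at 12 h, 10.4 and 14.0 at 24 h, 6.48 and 6.94 at 48 h) and was not tested. The next member above the minimum was MRPL53, with a mean of 37.1. MRPL53 shares 45.2% of its exon bases with CCDC142, MRPS24 shares 23.2% with the read-through gene URGCP-MRPS24, and in all 41 members share exon bases with another gene in GENCODE 29. Whether counting used strand, and how reads in shared bases were assigned, is not given in the sources used here, so these levels are uncertain.

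After 24 h of XMD892, 14 of 77 tested members had risen above E8 and none had fallen. They were MRPL12, MRPL41, MRPS28, MRPL55, MRPL54, MRPL46, MRPL52, MRPL24, MRPS26, MRPL36, MRPL14, MRPL4, MRPL27 and MRPL57, with log2 fold changes between 0.44 (MRPL57) and 1.501 (MRPL12). Of all tested genes 8.66% were called higher and 7.56% lower in this comparison, by limma on log2(normalised read count + 1) at a Benjamini-Hochberg adjusted p under 0.05. The median log2 fold change was 0.20 over members and 0.01 over all tested genes, and 60 of 77 members had a positive value. At an unadjusted p under 0.05, limma gave 25 members higher and 0 lower, against 2629 and 2348 of all 16351 tested genes. At the adjusted threshold edgeR and DESeq2 each called 0 members lower, against 1326 and 1084 of all tested genes. None of the 14 had libraries that overlapped E8. Both 24 h libraries lay above both E8 libraries for 41 of 77 members and for 4880 of 16351 tested genes.

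The rise at 24 h rested largely on E8 replicate 1. Without it, 3 members were called higher (MRPL55, MRPL41 and MRPL46; 4.77% of all tested genes were called higher and 5.58% lower) and the median was 0.09. Without E8 replicate 2, 32 were called higher and 2 lower, MRPS35 and MRPL42 (17.7% and 12.4% of all), and the median was 0.35. Leaving out 24 h replicate 1 kept 6 of the 14 calls (3.22% of all), those of MRPL55, MRPS28, MRPL41, MRPL52, MRPL12 and MRPL54. Once the trends along GC content were taken out of each library, 12 of the 14 were still called and 14 were called in all (8.83% of all).

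After 48 h, at the same harvest time as E8, 9 of 77 members had risen and none had fallen. MRPL24, MRPL27, MRPL52, MRPL54, MRPL55 and MRPS28 were called at 24 h too, and MRPL28, MRPL53 and MRPS33 at 48 h only. The calls covered 5.08% of all tested genes in the higher and 6.45% in the lower direction. Log2 fold changes of the 9 ran from 0.54 (MRPL27) to 1.27 (MRPL53), the median was 0.13 over members against 0.02 over all tested genes, and 60 of 77 members had a positive value. At an unadjusted p under 0.05, limma gave 19 members higher and 2 lower, against 2205 and 2163 of all 16351 tested genes. At the adjusted threshold edgeR and DESeq2 each called 0 members lower, against 1097 and 945 of all tested genes.

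Of the 9 calls at 48 h, MRPL53 alone was kept without E8 replicate 1 (1 member called, with 3.62% of all tested genes called higher and 6.17% lower) and the median was 0.04. Without E8 replicate 2, 21 members were called higher and 1, MRPS30, lower (14.6% and 10.2% of all), and the median was 0.26. Leaving out 48 h replicate 1 kept MRPL24 alone and leaving out 48 h replicate 2 kept none, in fits where 1.37% and 1.52% of all tested genes were called higher. The comparisons at 24 h and 48 h share the E8 libraries, so the 6 members called in both are not independent observations.

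At 12 h, with 1 library, MRPL36 was the only member called, higher by 0.80 ± 0.22 on the log2 scale (adjusted p = 0.026, limma with Benjamini-Hochberg adjustment, the single library being assumed to vary like the other groups). Calls made up 2.56% of all tested genes in the higher and 4.89% in the lower direction. The median was 0.17 over members and 0.02 over all, with 63 of 77 positive. Its call was kept without either E8 library, where 3 members were called without replicate 1 (MRPL1 and MRPL36 higher, MRPL23 lower; 4.21% and 7.25% of all) and 20 higher and 1 lower without replicate 2 (10.3% and 7.74%). In a fit of only the 12 h and E8 libraries no member was called.

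Between 24 h and 48 h of XMD892, a comparison that does not use the E8 libraries for its means, limma called 0 of 77 members (0.349% of all tested genes higher and 0.856% lower), and edgeR and DESeq2 also called 0. At an unadjusted p under 0.05, 4 of 77 members were lower at 48 h and 0 higher, against 1156 and 921 of all 16351 tested genes. The median was -0.06 over members and 0.00 over all tested genes, and 26 of 77 members had a positive value. A fit of the 24 h and 48 h libraries alone called 4 members lower at 48 h (4.13% of all), MRPL41, MRPL46, MRPL12 and MRPS12.

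**Figure D2:**
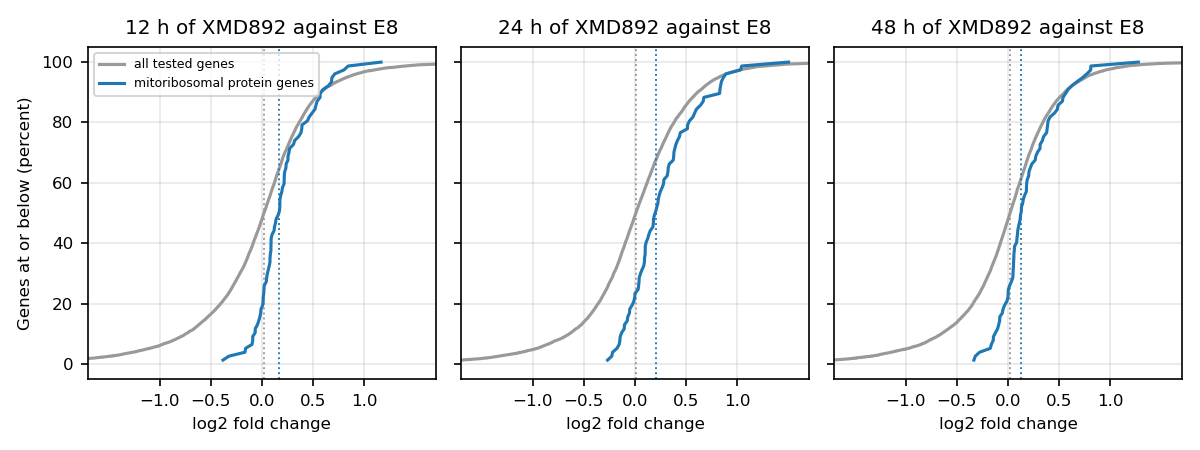
Cumulative share of genes (vertical axis, percent) at or below each log2 fold change (horizontal axis, the outermost genes not shown) at 12, 24 and 48 h of XMD892 against E8, for the 77 tested mitoribosomal protein genes and all 16351 tested genes. Dotted lines are the medians, 0.17, 0.20 and 0.13 for the members and between 0.01 and 0.02 for all genes, and the member curves start further right because their lowest values lie between -0.38 and -0.27.

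Across all 5 XMD892 libraries and both E8 libraries, 18 members lay above E8 throughout, among them MRPL24, MRPL36, MRPL46, MRPL58, MRPS18A and MRPS33, against 14.0% of all tested genes. MRPL3 alone lay below E8 throughout, against 14.8% of all.

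Among the large subunit proteins with a bacterial homologue, 7 of 30 tested were called higher at 24 h and 4 of 30 at 48 h. These counts stand against 8.66% and 5.08% of all tested genes called higher, and the medians were 0.16 and 0.11. The counts were 1 and 0 and the medians 0.07 and 0.09 without E8 replicate 1. MRPL24, whose bacterial counterpart starts assembly of the large subunit and lies by the exit of the peptide tunnel, is at chr1:156737303-156741590 on the minus strand. Its normalised read counts were 240 and 368.5 in E8, 478 at 12 h, 600 and 466 at 24 h, then 496 and 548 at 48 h. Every XMD892 library lay above both E8 libraries. The log2 fold change was 0.83 ± 0.20 (SE) at 24 h (adjusted p = 0.0074, limma) and 0.81 ± 0.20 at 48 h (adjusted p = 0.010, limma).

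MRPL55 (chr1:228106679-228109312, minus strand), the counterpart of bacterial L31, had counts of 451 and 616 in E8, 579 at 12 h, 1055 and 874 at 24 h, then 808 and 752 at 48 h. The 12 h library lay between the E8 libraries and the later ones lay above them. Its log2 fold change was 0.86 ± 0.17 at 24 h (adjusted p = 0.0022, limma) and 0.56 ± 0.17 at 48 h (adjusted p = 0.040), and the 24 h call was kept without E8 replicate 1. MRPL27 (chr17:50367857-50373214, minus strand), whose bacterial homologue reaches the peptidyl transferase centre, had counts of 640 and 824 in E8, 1078 at 12 h, 1109 and 1044 at 24 h, then 1142 and 973 at 48 h. All 5 XMD892 libraries were above E8, with log2 fold changes of 0.57 ± 0.16 at 24 h (adjusted p = 0.022, limma) and 0.54 ± 0.16 at 48 h (adjusted p = 0.036).

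MRPL28 had counts of 961 and 1704 in E8, 1455 at 12 h, 1856 and 1797 at 24 h, then 2176 and 1790 at 48 h. E8 replicate 1 was the lowest of the 7, and the call at 48 h (0.62 ± 0.20, adjusted p = 0.041, limma) had no match at 24 h (0.51, adjusted p = 0.077); the change between these times was 0.11 (adjusted p = 0.87). MRPL36, a very small protein whose bacterial homologue binds zinc, had counts of 302 and 416 in E8, 619 at 12 h, 549 and 579 at 24 h, then 494 and 479 at 48 h. The 12 h library was the highest and all XMD892 libraries were above E8. Its log2 fold change was 0.67 ± 0.18 at 24 h (adjusted p = 0.014, limma) and 0.45 at 48 h (adjusted p = 0.10).

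MRPL12 forms the flexible stalk that binds translation factors, and it also has a reported role beside the mitochondrial RNA polymerase. Its counts were 140 and 585 in E8, 514 at 12 h, 927 and 711 at 24 h, then 413 and 611 at 48 h. The E8 libraries differed by 2.06 on the log2 scale. The 24 h value of 1.501 ± 0.37 (adjusted p = 0.0086, limma) was the highest among members, and the 48 h libraries lay around E8 replicate 2. MRPL12 shares 68.2% of its exon bases with the read-through gene AC139530.2. MRPL14 and MRPL4, proteins of the conserved core, were called at 24 h with log2 fold changes of 0.60 ± 0.19 (adjusted p = 0.031, limma) and 0.58 ± 0.16 (adjusted p = 0.018). At 48 h they stood at 0.49 (adjusted p = 0.091) and 0.48 (adjusted p = 0.058).

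MRPL3 had a narrow E8 pair and stood lower with XMD892. Its counts were 3921 and 3853 in E8, 3480 at 12 h, 3438 and 3030 at 24 h, then 3269 and 3138 at 48 h. The difference was -0.27 ± 0.14 at 24 h (adjusted p = 0.20, limma) and -0.28 ± 0.14 at 48 h (adjusted p = 0.21), which did not pass the threshold. MRPL23, a protein at the tunnel exit whose gene shares 2.9% of exon bases with another gene, had values of -0.32 at 12 h (adjusted p = 0.36), 0.10 at 24 h and 0.03 at 48 h.

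**Figure D3:**
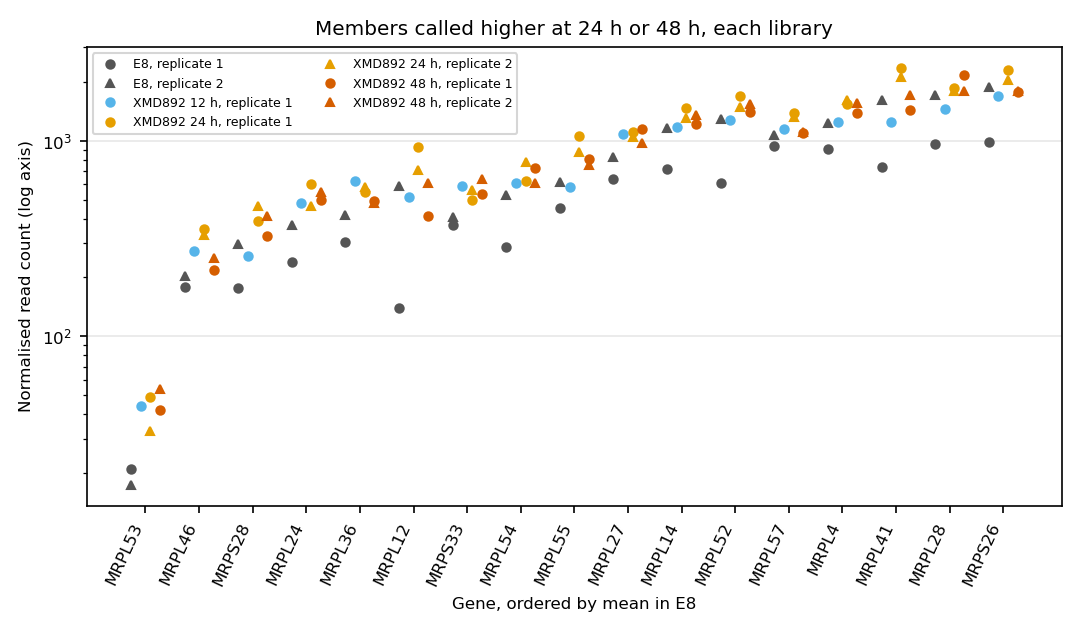
Normalised read count (vertical log axis) in each library for the 17 members called higher at 24 h or 48 h, ordered by E8 mean; circles are replicate 1 and triangles replicate 2. E8 replicate 1 is the lowest library for most of these genes, for example 140 for MRPL12 against 585 in E8 replicate 2, and MRPL53 lies far below the others.

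Among the large subunit proteins specific to mitochondria, 5 of 21 were called higher at 24 h and 3 of 21 at 48 h. These counts stand against 8.66% and 5.08% of all tested genes called higher, and the medians were 0.28 and 0.18. Leaving out E8 replicate 1 gave 2 and 1, and medians of 0.13 and 0.03. MRPL54 (chr19:3762664-3768575, plus strand) had counts of 286 and 528 in E8, 611 at 12 h, 624 and 781 at 24 h, then 725 and 607 at 48 h. All XMD892 libraries were above E8, by 0.84 ± 0.22 at 24 h (adjusted p = 0.012, limma) and 0.77 ± 0.22 at 48 h (adjusted p = 0.024). MRPL52 (chr14:22829879-22835037, plus strand) had counts of 609 and 1296 in E8, 1283 at 12 h, 1686 and 1483 at 24 h, then 1399 and 1546 at 48 h. E8 replicate 1 was far below the other 6 libraries, and the log2 fold changes were 0.83 ± 0.22 (adjusted p = 0.015, limma) and 0.73 ± 0.22 (adjusted p = 0.038).

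MRPL41, with the highest 24 h log2 fold change among these proteins, had counts of 731 and 1610 in E8, 1242 at 12 h, 2357 and 2121 at 24 h, then 1439 and 1706 at 48 h. It was above both E8 libraries at 24 h (1.04 ± 0.23, adjusted p = 0.0041, limma) and overlapped them at 12 and 48 h. Its transcript has the highest GC content of all members, 71.95%. MRPL46 had counts of 178 and 204 in E8, 274 at 12 h, 353 and 330 at 24 h, then 217 and 250 at 48 h. Here the E8 libraries were close, and the log2 fold change was 0.84 ± 0.19 at 24 h (adjusted p = 0.0046, limma) and 0.29 at 48 h (adjusted p = 0.35); the difference between the times was -0.55 (adjusted p = 0.19).

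MRPL53 was low in every library, with counts of 20.95 and 17.4 in E8, 44.0 at 12 h, 48.9 and 32.7 at 24 h, then 42.1 and 53.6 at 48 h. All XMD892 libraries lay above E8, by 1.27 ± 0.36 at 48 h (adjusted p = 0.022, limma) and 1.03 ± 0.36 at 24 h (adjusted p = 0.051). MRPL57 was called at 24 h (0.44 ± 0.15, adjusted p = 0.047, limma) and had 0.15 at 48 h (adjusted p = 0.57).

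MRPL58 is a peptidyl-tRNA hydrolase that releases peptides from stalled mitoribosomes and is also a structural subunit. Its counts were 431 and 454 in E8, 657 at 12 h, 548 and 600 at 24 h, then 611 and 548 at 48 h. All XMD892 libraries were above a narrow E8 pair, yet the differences of 0.57 at 12 h (adjusted p = 0.085, limma), 0.37 at 24 h (adjusted p = 0.12) and 0.39 at 48 h (adjusted p = 0.13) did not pass the threshold. MRPS30, a large subunit protein despite its symbol, had counts of 2036 and 1593 in E8, 1606 at 12 h, 1626 and 1611 at 24 h, then 1392 and 1466 at 48 h. Its 48 h value of -0.33 ± 0.15 (adjusted p = 0.17, limma) was the lowest among members, and with the GC trend removed MRPS30 was called lower at 48 h beside 12 members called higher (10.7% and 8.34% of all tested genes).

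In the small subunit, 2 of 25 tested members were called higher at 24 h and 2 of 25 at 48 h, with medians of 0.18 and 0.13. The shares of all tested genes called higher were 8.66% at 24 h and 5.08% at 48 h. No small subunit member was called at either time without E8 replicate 1, and the medians were then 0.08 and 0.02. MRPS28 had counts of 177 and 296 in E8, 259 at 12 h, 387 and 466 at 24 h, then 325 and 412 at 48 h. The 12 h library lay within E8 and the later ones above, by 0.89 ± 0.22 (adjusted p = 0.0083, limma) and 0.67 ± 0.22 (adjusted p = 0.048). MRPS28 shares 35.8% of its exon bases with AC036214.3. MRPS33, a small protein specific to mitochondria, had counts of 369 and 409 in E8, 588 at 12 h, 496 and 557 at 24 h, then 537 and 636 at 48 h. The E8 pair was narrow and lay below all other libraries, with log2 fold changes of 0.43 at 24 h (adjusted p = 0.083, limma) and 0.59 ± 0.17 at 48 h (adjusted p = 0.026). MRPS26, also specific to mitochondria, was called at 24 h (0.67 ± 0.20, adjusted p = 0.027, limma), and its E8 counts of 981 and 1881 spanned its 48 h counts of 1769 and 1794.

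The 3 MRPS18 paralogs, related to bacterial S18 and placed at different sites of the mitoribosome, were not called. MRPS18A, in the large subunit, lay above E8 in all 5 XMD892 libraries, with 442 and 497 in E8 and between 516 and 636 with XMD892 (0.32 at 24 h and 0.26 at 48 h, adjusted p = 0.21 and 0.34, limma). MRPS18B, in the small subunit, had 1035 and 1065 in E8 and between 1035 and 1254 with XMD892, with differences of 0.09 and 0.00. MRPS18C, the small subunit counterpart of bacterial S18, had differences of 0.32 at 24 h (adjusted p = 0.22) and 0.13 at 48 h (adjusted p = 0.69). MRPS18A and MRPS18C share 47.0% and 40.2% of their exon bases with genes on the opposite strand. MRPS36, the member that is no ribosomal subunit, had 312 and 364 in E8, 305 and 372 at 24 h, then 374 and 420 at 48 h, with differences of 0.00 and 0.23 (adjusted p = 1.00 and 0.44, limma).

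Log2 fold changes of members rose along transcript GC content in the fit of all 7 libraries, with a Spearman correlation of 0.64 at 24 h, 0.37 at 48 h and 0.30 at 12 h over 77 members, against 0.32, 0.19 and 0.05 over all tested genes. Without E8 replicate 1 the correlation over members was 0.36 at 24 h, -0.14 at 48 h and -0.22 at 12 h, so that its sign at 48 h and 12 h turned with that library, and over all genes it was 0.06, -0.11 and -0.20. Shorter transcripts also had higher fold changes, with correlations of log2 fold change and log2 length of -0.45 at 24 h and -0.40 at 48 h over members, against -0.20 and -0.18 over all tested genes. These were -0.24 and -0.11 over members and -0.11 and -0.06 over all once E8 replicate 1 was left out. These are correlations across genes that share the same libraries, and genes are not independent replicates. With the trend along length removed, 4 members were called higher and 1, MRPL15, lower at 48 h (4.98% and 7.13% of all tested genes). At 24 h 12 were higher and 1, MRPL3, lower (8.07% and 8.08%), and the medians were 0.04 at 48 h and 0.10 at 24 h.

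**Figure D4:**
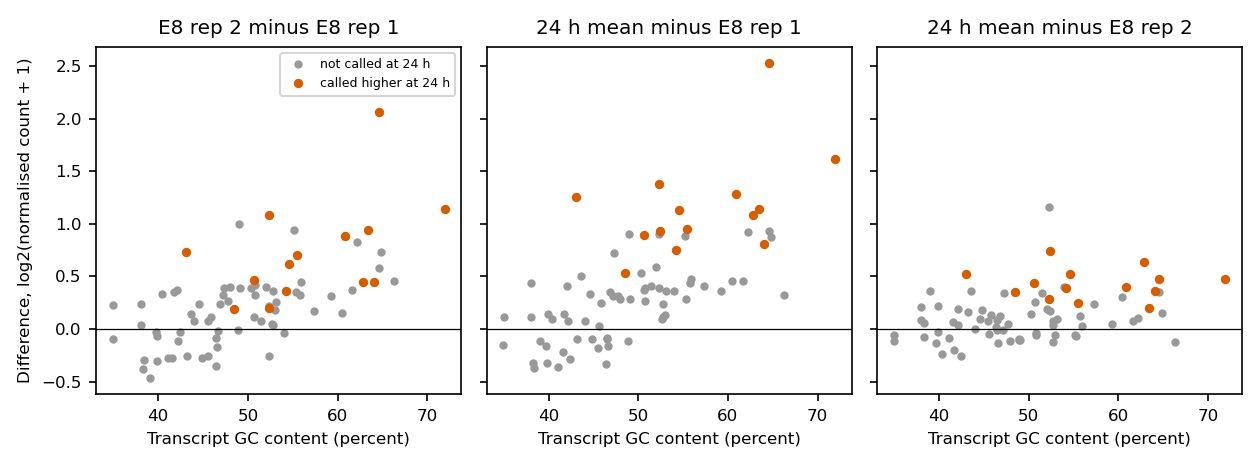
Difference in log2(normalised count + 1) against transcript GC content (percent) for the 77 tested members: between the E8 replicates (left), and between the 24 h mean and E8 replicate 1 (middle) or E8 replicate 2 (right). Orange points were called higher at 24 h. Points climb with GC content in the left and middle panels, with MRPL12 highest, and lie closer to 0 in the right panel.

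Head-to-head gene pairs, whose transcription starts face away from each other across a short interval, were frequent among members. By GENCODE 29 starts between 200 bases of overlap and 1000 bases apart, 19 of 78 members (24.4%) had a protein-coding partner, against 1538 of 14531 listed protein-coding genes (10.6%). MRPL46, of the large subunit, and MRPS11, of the small subunit, start 34 bases apart on chromosome 15. MRPS11 had counts of 408 and 534 in E8, 643 at 12 h, 615 and 563 at 24 h, then 611 and 519 at 48 h, so that its 48 h libraries overlapped E8. Its log2 fold change at 24 h was 0.33 (adjusted p = 0.20, limma) beside 0.84 for MRPL46; whether these differ was not tested.

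MRPL27 and EME1, a subunit of a DNA structure-specific endonuclease, start 6 bases apart, and both were called higher at 48 h (0.54 and 0.81, adjusted p = 0.036 and 0.0078, limma). Leaving out E8 replicate 1, MRPL27 had 0.36 (adjusted p = 0.14) and EME1 0.91 (adjusted p = 0.0030). MRPL36 and NDUFS6, a subunit of respiratory complex I, start 34 bases apart by their GENCODE starts. They had 0.67 and 0.64 at 24 h (adjusted p = 0.014 and 0.051, limma). NDUFS6 varied widely in E8, with a mean count of 1868 ± 904 (SD). The MRPL36 promoter bases printed above precede a RefSeq start inside the gene, so they are not the interval between this pair. MRPS34 and EME2 start 52 bases apart; EME2 was called at both times (0.95 and 0.71, adjusted p = 0.0043 and 0.032), while MRPS34 had 0.51 and 0.22 (adjusted p = 0.051 and 0.47). The EME2 call was kept at 24 h (adjusted p = 0.020) and lost at 48 h (adjusted p = 0.14) without E8 replicate 1. MRPL52 was called at both times, while its partner SLC7A7, an amino acid transporter subunit 59 bases away, had -0.09 and -0.36 (adjusted p = 0.89 and 0.53). MRPL57 and SKA3, a kinetochore protein, start 43 bases apart and had 0.44 and -0.09 at 24 h (adjusted p = 0.047 and 0.73).

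Other parts of the mitochondrial translation machinery were measured beside the members. Their counts of calls stand against 8.66% of all tested genes called higher at 24 h and 5.08% at 48 h, and without E8 replicate 1 against 4.77% and 3.62%. Of 5 mitoribosomal proteins with other symbols (DAP3, PTCD3, CHCHD1, AURKAIP1 and GADD45GIP1), AURKAIP1 was called higher at 24 h (0.67, adjusted p = 0.021, limma), with 1590 and 2898 in E8 and 3599 and 3259 at 24 h, and none was called at 48 h. Their medians were 0.24 and 0.13, and without E8 replicate 1 no call was left and the medians were 0.09 and -0.16. Both mitochondrial ribosomal RNAs were listed, although poly(A) selection captures them in part only. MT-RNR1, of the small subunit, had 8804 and 7452 in E8 and between 9758 and 13500 with XMD892 (0.58 at 48 h, adjusted p = 0.018, limma), and without E8 replicate 1 its value was 0.70 (adjusted p = 0.0014). MT-RNR2, of the large subunit, had a value of 0.20 at 48 h (adjusted p = 0.44) and -0.30 at 24 h (adjusted p = 0.21).

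Of 30 mitoribosome assembly factors, 9 were called higher at 24 h and 1 at 48 h, with medians of 0.25 and 0.22. Without E8 replicate 1, 5 were called higher at 24 h (MTG1, MRM2, RBFA, MALSU1 and SPG7) and 2 at 48 h (MTG1 and RBFA), with medians of 0.21 and 0.18. RBFA, which helps mature the small subunit RNA, was called at all 3 times, with 151 and 170 in E8, 310 at 12 h, 260 and 318 at 24 h, then 298 and 313 at 48 h. Of 16 translation factors, PDF, the peptide deformylase, was called at 24 h (1.42, adjusted p = 3.2e-04, limma) and none at 48 h, as was so without E8 replicate 1 (0.99, adjusted p = 8.4e-04, at 24 h). Of 20 mitochondrial aminoacyl-tRNA synthetases, which charge tRNAs for this ribosome, 2 were called higher at each time, with SARS2 at 1.45 and AARS2 at 0.58 at 48 h (adjusted p = 0.0014 and 0.020). None was called at 24 h without E8 replicate 1, and SARS2 alone at 48 h (0.96, adjusted p = 0.016). Of 20 genes of mitochondrial transcription, replication and RNA processing, 4 were called higher at each time and 1 lower at 48 h, and FASTK, POLG, HSD17B10 and POLG2 were higher by 0.85, 0.59, 0.54 and 0.52 at 48 h. Of these 20, FASTK at 24 h and FASTK and POLG at 48 h were called without E8 replicate 1.

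The proteins that the mitoribosome makes were listed as 13 transcripts of mitochondrial DNA, with medians of -0.34 at 24 h and -0.25 at 48 h. MT-ATP8 was called higher at each time (1.60 at 48 h, adjusted p = 1.3e-06, limma), and it overlaps MT-ATP6 in the mitochondrial genome; MT-ND5 was called lower at 24 h. MT-ATP8 alone was called at both times without E8 replicate 1, and the medians were then -0.18 and -0.03. The 75 nuclear subunits of oxidative phosphorylation had 9 called higher and 0 lower by limma at 24 h and at 48 h, with medians of 0.18 and 0.25. Of all tested genes, 8.66% were called higher and 7.56% lower at 24 h, and 5.08% and 6.45% at 48 h. At an unadjusted p under 0.05, 1 of these subunits was lower at 24 h and 0 at 48 h, against 2348 and 2163 of all 16351 tested genes. Without E8 replicate 1, 5 were called higher and 2 lower (COX7C and ATP5J2) at 24 h and 3 higher at 48 h, with medians of 0.03 and 0.09. NDUFA2 was higher by 1.06 and COX8A by 0.94 at 48 h (adjusted p = 4.6e-04 and 0.013), and the COX8A call at 48 h was lost without E8 replicate 1 (0.34, adjusted p = 0.14). The 79 cytosolic ribosomal protein genes had 5 called higher and 2 lower at 24 h and 9 higher at 48 h, with medians of 0.02 and 0.22. Without E8 replicate 1, 2 were higher and 6 lower at 24 h and 4 higher and 1 lower at 48 h, with medians of -0.14 and 0.04. Between 24 h and 48 h, the median was 0.17 for the cytosolic ribosomal proteins, 0.07 for oxidative phosphorylation and -0.06 for the mitoribosomal proteins, and 66 of 79, 50 of 75 and 26 of 77 values were positive. Among 15 regulators of nuclear genes for mitochondria, MYCN and MYC were called higher at 24 h (0.79 and 0.53, adjusted p = 0.0012 and 0.016, limma) and the coactivator PPARGC1A lower (-1.78, adjusted p = 0.0076), with 78.6 and 47.9 in E8 and 28.1 and 10.3 at 24 h. PPARGC1B, a related coactivator, was called lower at 48 h (-0.80, adjusted p = 0.0044, limma), and MYC was lower at 48 h than at 24 h (-0.59, adjusted p = 0.046), a call lost when any 1 of these 4 libraries was left out (adjusted p from 0.086 to 0.63). Without E8 replicate 1 the calls of MYC, MYCN and PPARGC1B were kept and that of PPARGC1A was lost.

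**Figure D5:**
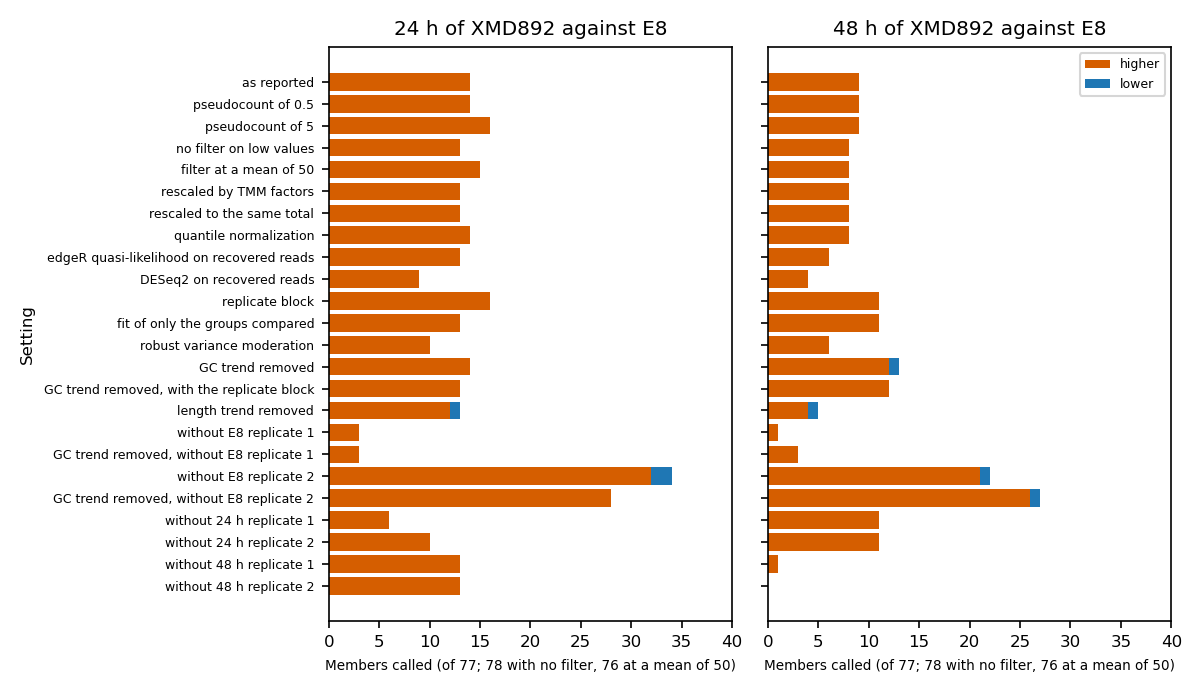
Number of members called (horizontal axis) higher or lower at 24 h and 48 h of XMD892 against E8 under each setting of the processing (vertical axis). The bars run from 3 to 34 at 24 h and from 0 to 27 at 48 h, shortest at 24 h without E8 replicate 1 and longest in both panels without E8 replicate 2.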

How the data were processed

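Poly(A) RNA of 7 H1 samples was sequenced. The submitters' processing notes name Trimmomatic 0.36, STAR, featureCounts 1.5.3, DESeq2 1.26.0 and hg38, with no role for each; annotation, strand setting and filters are not given in the sources used here. The authors deposited a signal for each gene symbol, which is its read count scaled by a factor of that library. Whole reads were recovered within 0.1 for 100% of the values. A further 2 columns match no sample and were not used.

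Genes with a mean of 10 or more (16351 of 19775) were fitted with limma 3.58.1 (R 4.3.3) on log2(value + 1), 1 mean per group over all 7 libraries, trended prior variance, 3 residual and 18.4 prior degrees of freedom, two-sided, Benjamini-Hochberg adjusted over all tested genes. The fit was tested on simulated data. ± after a log2 fold change is its standard error. Reads outside the listed genes are not in the totals, and intervals were not needed since no share of a single sample is compared.

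Members, gene lists, motifs and settings were chosen with earlier results of these data known. Named genes are the called members of each comparison, the 5 highest and 5 lowest per kb in E8, the MRPS18 paralogs, MRPL12, MRPS30, MRPS36, MRPL58, the 5 mitoribosomal proteins with other symbols, both mitochondrial rRNAs, up to 4 called genes of each list, members beside the filter and MAPK7; MRPL3, MRPL15, MRPL1, MRPS12, MRPS35, MRPS11's and other head-to-head partners, PDF, MT-ND5, SALL4, PPARGC1A, MYC, MYCN and genes named for their call without E8 replicate 1 were named after their values were seen. Length and GC content come from GENCODE 29 (97.7% of symbols matched, GC content for 98.0% of tested genes). Alternatives were other pseudocounts, filters and scalings, edgeR 4.0.16 or DESeq2 1.42.0 run on recovered reads, robust moderation, a fit of the compared groups, a replicate block, removal of GC or length trends (loess, span 0.3), and leaving out each replicate.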

Additional observations from a re-analysis of the deposited data

Results flagged for a closer look

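COL1A1, a fibroblast collagen gene among the marker lists and not a mitoribosomal gene, had normalised read counts of 481 and 589 in E8, 1534 at 12 h, 882 and 851 at 24 h, then 361 and 324 at 48 h. It stood above E8 at 24 h (0.70) and below E8 at 48 h (-0.64), and the difference between those times was itself tested: -1.34 ± 0.16 on the log2 scale (limma, adjusted p = 7.5e-05).

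MYC, a transcription factor in the list of regulators, had counts of 2201 and 2230 in E8, 2672 at 12 h, 3464 and 2943 at 24 h, then 2152 and 2087 at 48 h. The values stood above E8 at 24 h and near E8 at 48 h, and the difference between those times was tested: -0.59 ± 0.14 on the log2 scale (limma, adjusted p = 0.046). It missed the threshold with TMM factors (adjusted p = 0.052), with quantile normalization (adjusted p = 0.056) and when any 1 of the 4 libraries at 24 h and 48 h was left out (adjusted p from 0.086 to 0.63).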

How the results depend on the processing

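Counts of members called kept within 1.5 times of 14 at 24 h and 9 at 48 h under other pseudocounts, filters, scalings, edgeR, robust moderation and removal of the GC trend. DESeq2 called 9 at 24 h and 4 at 48 h, and removal of the length trend left 5 at 48 h. At 12 h the count moved from 1 to 5 with the GC trend removed and to 0 in a fit of only the groups compared; the latter fit moved the count between 48 h and 24 h from 0 to 4. Leaving out each replicate in turn gave 0 to 22 calls at 48 h, 3 to 34 at 24 h, 1 to 21 at 12 h and 0 to 4 between 48 h and 24 h, and medians from 0.040 to 0.26, from 0.094 to 0.35, from 0.042 to 0.30 and from -0.083 to -0.014. With the GC trend removed as well, leaving out E8 replicate 1 or 2 gave 3 or 27 calls at 48 h, 3 or 28 at 24 h, 3 or 20 at 12 h and 2 in either case between 48 h and 24 h. The cause of these changes was not tested; a group left with 1 library is assumed to vary like the others. No alternative reversed a called direction among members; ATP5J2, an ATP synthase subunit, was not called in the fit of all libraries and was called lower at 24 h (-0.46) without E8 replicate 1, with the opposite sign, and stood at 0.67 without E8 replicate 2.

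Replicate numbers did not pair the libraries: differences between replicates correlated at -0.04, -0.05 and -0.07 between groups. With the replicate block, 11 members were called at 48 h, 16 at 24 h and 4 at 12 h (4 also with the GC trend removed), and 0 between 48 h and 24 h. Among the values of single genes over all settings, 7009 kept their side of the threshold, 295 passed it only in the alternative and 290 fell short of it.

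Each group had at most 2 libraries, and counts of low members such as MRPL53 and MRPS24 carry large counting error.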
